A study of Mus musculus with 44 samples.

Results

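Open chromatin of the mouse medulloblastoma source labelled GTS1 was compared with that of the line labelled preGTS1 given the vehicle DMSO. The comparison uses 4 of the 44 samples of the series, chosen by their labels alone: 2 ATAC-seq libraries of GTS1 and 2 of preGTS1 under DMSO. The series, whose title is about dormant SOX9-positive cells and MYC-driven recurrence of medulloblastoma, also holds bulk RNA, single-cell RNA and further ATAC libraries. As background, MYCN expression in GTML tumors is switched by tetracycline through an activator under control of Slc1a2 (Glt1), a glutamate transporter gene, while GTS tumors also have one under control of Sox9. GTS1 is labelled as GTS medulloblastoma tumor with no treatment, and preGTS1 as preGTS1 medulloblastoma tumor with DMSO. Alleles, strain, age, sex and number of animals are not given in the labels for either, nor do the labels say how GTS1 and preGTS1 are related. Source and treatment differ together between them, so an effect of the source cannot be told apart from one of DMSO. The other libraries of the same table serve as side values: GTS2, labelled as a second GTS tumor source without treatment, preGTS1 given DOX, and the GTML tumor source GTML3 given DMSO, each in duplicate.

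Medulloblastoma is a childhood tumor of the cerebellum, and its Group 3 form is known for MYC activity and for photoreceptor genes switched on outside the eye by the homeobox factors OTX2 and CRX. SOX9 is a transcription factor of glial and stem-like cells. ATAC-seq uses a transposase that cuts where DNA is free of nucleosomes, so that promoters and distal regulatory regions collect reads when they are accessible.

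The table holds CPM, each region's reads scaled to a common library total, for 88981 regions that are shared by all 12 libraries. In them, the GTS1 libraries held 3996828 and 2084965 reads, and the preGTS1 DMSO libraries held 6761968 and 7773324. Pearson correlations of log2(CPM + 1) were 0.932 between the GTS1 duplicates, 0.971 between the preGTS1 DMSO duplicates and 0.635 to 0.641 across the groups. Reads of the duplicates scattered by a chi-square per degree of freedom of 1.85 in GTS1 and 1.87 in preGTS1 DMSO, where independent reads give about 1, and nothing in the labels says that duplicates are separate animals or cultures. Tests therefore compare these libraries rather than conditions. Their p-values measure the scatter between duplicates, which need not include that between animals or cultures. A lower value can mean fewer cells with the region open or less opening per cell, and the 2 cannot be told apart in bulk. Promoters of 5 of the 6 cerebellar granule lineage markers with a promoter region (Zic1, En2, Pax6, Neurod1 and Meis1) had at least 10.6 CPM in every one of the 4 libraries, and Atoh1 had 28.8 and 26.9 CPM in GTS1 against 2.07 and 1.8 CPM in preGTS1 DMSO. Of 84 markers of 9 other cell types, among them microglia, endothelium, oligodendrocytes and muscle, 28 had a promoter region. Their promoters summed to 266 and 261 CPM in GTS1 and to 256 and 245 CPM in preGTS1 DMSO, with a median promoter of 6.66 CPM in GTS1 and 7.26 CPM in preGTS1 DMSO, against 30.1 and 24.9 CPM over all genes. Among those 28, 3 promoters were called higher in GTS1 (Flt1, Foxc1 and Twist2) and 4 lower (Esam, Pifo, Kcnj8 and Myh3), by the rule given below. Over all genes, 12.5% were called higher and 7.36% lower by promoter. Ugt8a, Foxj1 and Foxc1, also of those 28, had at least 10.6 CPM in every one of the 4 libraries. That value lies below the median over all genes and does not by itself set the granule markers apart.

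Differences were wide and ran in both directions. A region was called when its limma adjusted p was below 0.05 and the difference on the log2(CPM + 1) scale was at least 1, about 2-fold. By this rule 10079 regions (11.3%) were more open and 17155 regions (19.3%) were less open in GTS1 than in preGTS1 DMSO. On the adjusted p alone, 13.3% were more open and 20.4% less open. The counts without preGTS1 DMSO library 1 were 6610 more open and 9658 less open, those without preGTS1 DMSO library 2 were 6660 and 9699, and without GTS1 library 2 the less open count was 10447. The direction depended on the distance to the nearest gene start. Within 1 kb of a start, here called promoters, 1607 of 13445 regions (12%) were more open and 1037 (7.71%) less open. From 1 to 10 kb away 10.6% were more open and 19.5% less open, and from 10 to 50 kb away 11% were more open and 19.7% less open. Over 50 kb from a start, 3742 of 32103 regions (11.7%) were more open and 7590 (23.6%) less open. Reads within 1 kb of a start made up 48.7 and 49.01% of the GTS1 libraries and 43.2 and 43.3% of the preGTS1 DMSO libraries. Because CPM is a share of reads, the split moves with the scaling: the share of calls that were more open was 37.0% as deposited, 59.5% after centring each library on its median region and 26.8% after centring on its median promoter. Among promoter calls it was 60.8%, 86.3% and 37.9% under the same 3 scalings, and 39.3% when a difference of at least 2 was required. In each alternative setting with both classes, the more open share was larger among promoters than over 50 kb from a start. Less open regions had a median of 1.48 CPM in GTS1 and 10.6 CPM in preGTS1 DMSO, and more open regions had 14.8 CPM in GTS1 and 1.51 CPM in preGTS1 DMSO.

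**Figure D1:**
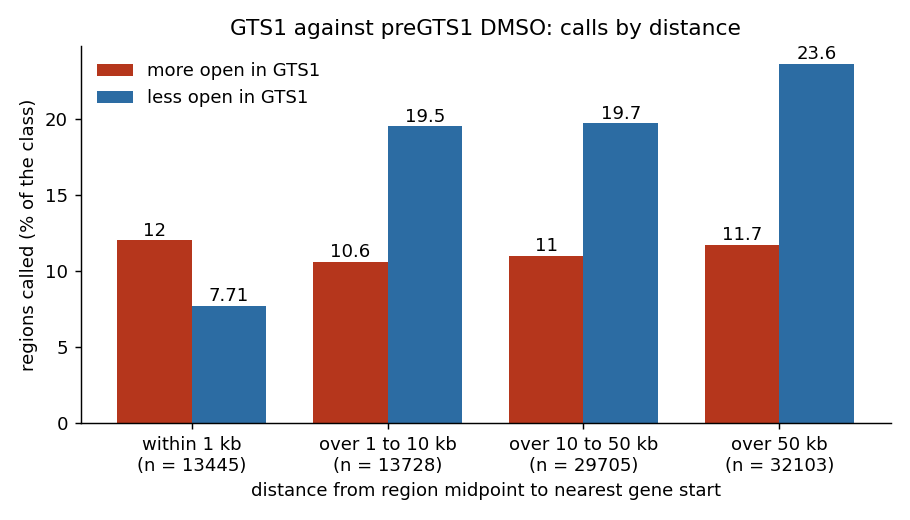
Share of regions called more open (red) or less open (blue) in GTS1 than in preGTS1 DMSO, in % of the regions of each distance class, with the number of regions under each class. The less open share is 7.71% within 1 kb of a start and 23.6% over 50 kb away, while the more open share stays between 10.6 and 12%.

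Photoreceptor genes lay largely on the less open side. Of the 139 regions nearest to the 28 genes of a photoreceptor and Group 3 list, 56 (40.3%, beside 19.3% of all regions) were less open in GTS1 and 8 (5.76%, beside 11.3%) more open. By promoter, 4 of the 15 members with a promoter region were less open (Impg2, Crx, Sag and Prdm1) and 0 more open, where 968 of 13144 genes (7.36%) were less open and 1641 (12.5%) more open by promoter. The list's median promoter difference was -0.78, against 0.14 over all promoters, and under the 6 other scalings and fits 3 to 6 of its promoters were less open and 0 or 1 more open. The promoters of 4 genes are shown because their values are given next, 3 of photoreceptor genes that were nearly closed in GTS1 and 1 that was nearly closed in preGTS1 DMSO. They are the RefSeq promoters of assembly GRCm38.p6, from 250 bases before to 50 after the start, while the regions' own coordinates fit the older build mm9. Capitals mark the letters TAATCC or their reverse complement, the core bound by OTX2 and CRX, for Crx, Gnat2 and Impg2, and would mark TGANTCA, the AP-1 motif, for Acoxl.
Crx, chr7:15879906-15880205, minus strand: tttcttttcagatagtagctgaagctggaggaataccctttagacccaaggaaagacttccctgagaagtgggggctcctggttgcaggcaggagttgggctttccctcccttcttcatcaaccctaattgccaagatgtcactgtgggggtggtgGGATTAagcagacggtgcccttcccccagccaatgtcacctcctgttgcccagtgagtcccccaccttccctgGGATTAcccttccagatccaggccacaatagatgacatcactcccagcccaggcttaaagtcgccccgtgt
Gnat2, chr3:108092816-108093115, plus strand: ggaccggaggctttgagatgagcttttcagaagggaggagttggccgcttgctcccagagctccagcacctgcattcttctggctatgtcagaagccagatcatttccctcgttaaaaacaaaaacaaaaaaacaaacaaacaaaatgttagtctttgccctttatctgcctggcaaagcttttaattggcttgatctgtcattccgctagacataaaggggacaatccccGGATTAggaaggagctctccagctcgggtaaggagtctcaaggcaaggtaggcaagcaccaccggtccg
Impg2, chr16:56204063-56204362, plus strand: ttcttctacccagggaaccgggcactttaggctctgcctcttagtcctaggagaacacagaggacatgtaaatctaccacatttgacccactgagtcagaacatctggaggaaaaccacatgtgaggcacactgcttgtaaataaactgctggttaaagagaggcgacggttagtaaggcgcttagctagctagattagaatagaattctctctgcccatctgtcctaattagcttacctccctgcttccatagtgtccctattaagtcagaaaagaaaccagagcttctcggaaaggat
Acoxl, chr2:127854378-127854677, plus strand: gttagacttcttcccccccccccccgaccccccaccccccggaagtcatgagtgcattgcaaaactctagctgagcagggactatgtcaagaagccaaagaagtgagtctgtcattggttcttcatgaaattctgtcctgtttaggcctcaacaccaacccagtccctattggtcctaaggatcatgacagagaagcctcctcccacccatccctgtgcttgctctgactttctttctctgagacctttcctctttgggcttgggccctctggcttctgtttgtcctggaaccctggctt

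Crx, the cone-rod homeobox factor, has 2 matches to TAATCC in this window and Gnat2 has 1. Impg2 and Acoxl have 0 matches to the motif searched in each. The printed Impg2 sequence does hold TGAGTCA, a match to TGANTCA, which is unmarked because only TAATCC was searched there. Over all 27025 RefSeq promoters of this length, 7.16% hold TAATCC and 7.93% hold TGANTCA on either strand.

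The Crx promoter had 1.25 and 1.44 CPM in GTS1 against 29.1 and 33.6 CPM in preGTS1 DMSO (difference -3.78, adjusted p = 2.95e-05), so the 2 groups stand far apart. All 5 regions nearest to Crx were less open. Gnat2 encodes the cone transducin alpha subunit, and its promoter had 4.25 and 3.84 CPM in GTS1 against 145 and 149 CPM in preGTS1 DMSO, 35.9-fold less (difference -4.88 ± 0.21 SE, adjusted p = 1.14e-10). The promoter of Impg2, a proteoglycan of the matrix around photoreceptors, had 3.25 and 0.959 CPM in GTS1 against 51.5 and 52.9 CPM in preGTS1 DMSO (adjusted p = 2.66e-05), and 8 of its 14 regions were less open. The promoter of Sag, the rod arrestin gene, had 2.75 and 2.88 CPM in GTS1 against 35.9 and 32.3 CPM in preGTS1 DMSO. Every one of these promoters was low in both GTS1 libraries and high in both preGTS1 DMSO libraries. They were named because they were called, so this gap is no further evidence. Prdm1, a repressor that steers photoreceptor precursors, differed less, with 4 and 4.8 CPM in GTS1 against 12.4 and 12.9 CPM in preGTS1 DMSO, and it lies in the chromosome 10 segment described below.

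Otx2, the homeobox gene upstream of Crx, had 13 nearest regions, of which 11 were less open and 0 more open. They summed to 47.8 and 40.8 CPM in GTS1 and to 585 and 614 CPM in preGTS1 DMSO. The largest difference among them was at chr14:49212619-49213822, 69.2 kb from the Otx2 start, with 2.5 and 3.36 CPM in GTS1 against 215 and 228 CPM in preGTS1 DMSO (79.4-fold less, adjusted p = 2.26e-12). The region next in size, 82.2 kb from the start, had 2.5 and 2.88 CPM in GTS1 against 85.5 and 96.7 CPM in preGTS1 DMSO. Both regions were thus at a few CPM in each GTS1 library and at 85.5 CPM or more in each preGTS1 DMSO library. The list also had members on the other side: at Cngb1, a rod channel subunit, 3 of 7 regions were more open and 0 less open.

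Other promoters with the largest losses in GTS1 belonged to genes of several kinds. The contactin genes Cntn6 and Cntn4, which encode neuronal adhesion molecules, had 0.959 to 5.76 CPM in GTS1 and 36.3 to 102 CPM in preGTS1 DMSO. Dclk1, a doublecortin-like kinase gene, had 4 and 0 CPM in GTS1 against 33.3 and 35.1 CPM in preGTS1 DMSO, and 19 of its 29 regions were less open. Them5, an acyl-CoA thioesterase gene, had 4.5 and 3.36 CPM in GTS1 against 100 and 115 CPM in preGTS1 DMSO. These promoters were close to empty in GTS1. Dynlt1b, a dynein light chain gene, had 1.25 and 0.959 CPM in GTS1 against 66.1 and 70.6 CPM in preGTS1 DMSO, but it belongs to a family of near-identical copies among which reads may have been split. Plagl1, an imprinted zinc finger gene, and Abracl lie in the chromosome 10 segment and had 0 to 2 CPM in GTS1 and 34.6 to 40.9 CPM in preGTS1 DMSO. The promoter nearest to Mir6420 was also among the 12. Over the 12 promoters the values ran from 0 to 5.76 CPM in GTS1 and from 33.3 to 149 CPM in preGTS1 DMSO, with limma adjusted p of at most 7.76e-05.

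**Figure D2:**
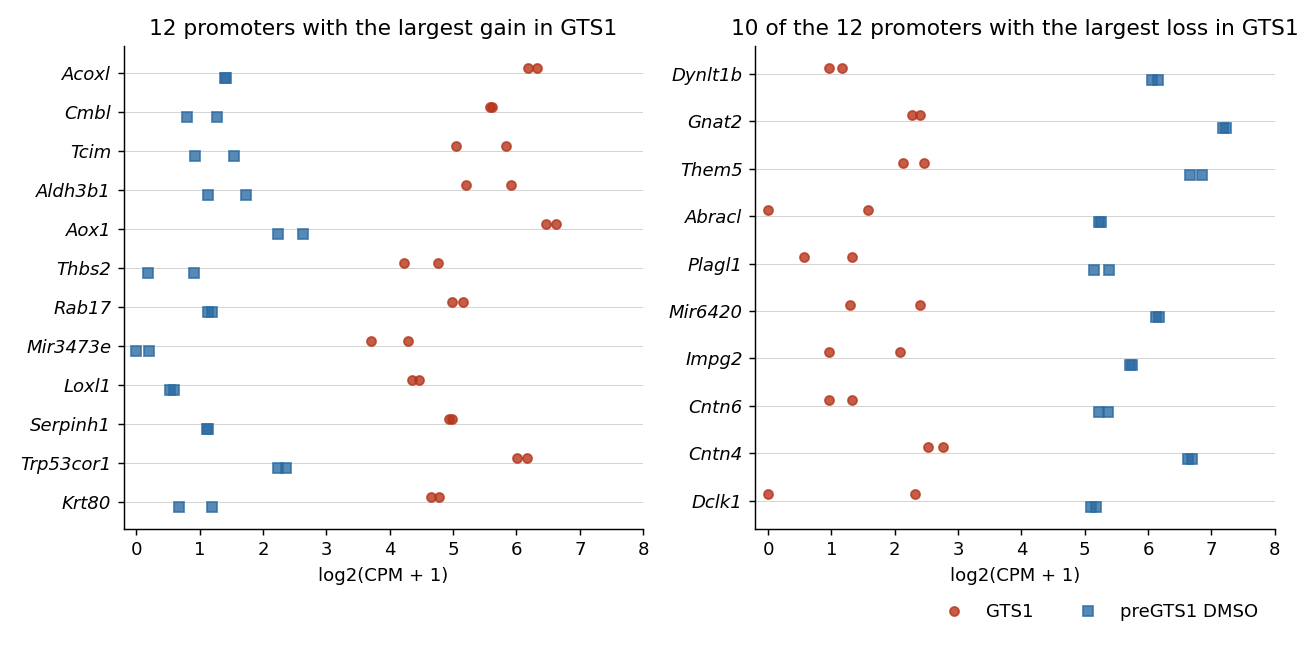
The 12 promoters with the largest gain (left) and 10 of the 12 with the largest loss (right) in GTS1, with log2(CPM + 1) of each GTS1 library (red circles) and each preGTS1 DMSO library (blue squares). In CPM, the promoters on the right run from 0 to 5.76 in GTS1 and from 33.3 to 149 in preGTS1 DMSO, and those on the left from 12 to 97.4 in GTS1 and from 0 to 5.18 in preGTS1 DMSO.

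Distal regions over 10 kb from a start lost most beside Marcks, Slc44a3, Otx2, Zfp365, Hs3st2, Sox5, Sash1 and Kcnd3. The region 278 kb from Marcks, which encodes a substrate of protein kinase C, had 0 reads in both GTS1 libraries against 62.3 and 63.7 CPM in preGTS1 DMSO. Set against 3 reads over both GTS1 libraries, it was at least 128-fold lower in GTS1. The region 87.1 kb from Sox5, a SoxD transcription factor gene, had 0.5 and 1.92 CPM in GTS1 against 92 and 81.6 CPM in preGTS1 DMSO. The region 143 kb from Kcnd3, a voltage-gated potassium channel gene, had 3 and 1.92 CPM in GTS1 against 147 and 130 CPM in preGTS1 DMSO. All 8 were at 4.5 CPM or less in GTS1 and at 54.2 CPM or more in preGTS1 DMSO. Marcks and Sash1 lie in the chromosome 10 segment described below.

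Genes of neuronal differentiation also lost accessibility. Of the 317 regions nearest to 31 genes of this list, 117 (36.9%, beside 19.3% of all regions) were less open and 25 (7.89%, beside 11.3%) more open in GTS1. By promoter, 13 of 28 members were less open and 2 more open, beside 7.36% and 12.5% over all genes. Under the 6 other scalings and fits 11 to 14 were less open and 2 to 4 more open. The list's promoters summed to 509 and 521 CPM in GTS1 and to 1050 and 1100 CPM in preGTS1 DMSO. Syt1, the synaptic vesicle calcium sensor gene, had 27.8 and 17.3 CPM in GTS1 against 161 and 167 CPM in preGTS1 DMSO (difference -2.85, adjusted p = 4.07e-09). The promoter of Snap25, a part of the vesicle fusion complex, had 14.5 and 15.8 CPM in GTS1 against 79.3 and 85.4 CPM in preGTS1 DMSO. Both vesicle genes were several-fold lower in each GTS1 library. Gap43 and the microtubule regulator genes Stmn3, Stmn2 and Dpysl3 differed by -2.52, -2.52, -2.02 and -2.43 at their promoters, all called less open. Neurog1 and Nhlh2, both basic helix-loop-helix factor genes of early neuronal commitment, went the other way at their promoters. The Neurog1 promoter had 34.8 and 42.2 CPM in GTS1 against 3.99 and 7.33 CPM in preGTS1 DMSO. Over all nearest regions, Nhlh2 had 1 of 5 more open and 3 less open, and Neurog1 had 1 of 2 more open and 1 less open.

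Cerebellar granule lineage and SHH pathway genes had more regions less open than more open, and equal counts at their promoters. Of their 242 nearest regions, promoters included, 68 (28.1%, beside 19.3% of all regions) were less open and 20 (8.26%, beside 11.3%) more open. At promoters, 2 of 24 were less open, Neurod1 among them, and 2 more open (Atoh1 and Sfrp1), beside 7.36% and 12.5% over all genes. Neurod1, a factor gene of differentiating granule neurons, had 42 and 47 CPM in GTS1 against 105 and 114 CPM in preGTS1 DMSO, and 8 of its 10 regions were less open. Atoh1, which marks granule progenitors, was the opposite case, with an adjusted p of 4.3e-05 for a difference of 3.30. Sfrp1, a secreted WNT antagonist gene, had 22 and 21.6 CPM in GTS1 against 0.887 and 1.42 CPM in preGTS1 DMSO, and all 4 of its regions were more open. The median promoter difference of the list was -0.18 and turned positive on centring by the median region (0.28) or by chromosome (0.16).

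Notch, Id and BMP genes moved in both directions. Of 25 promoters, 6 were more open and 5 less open, beside 12.5% and 7.36% over all genes. Of 225 nearest regions, 18 (8%, beside 11.3% of all regions) were more open and 60 (26.7%, beside 19.3%) less open. Id4, an inhibitor of basic helix-loop-helix factors, had 45 and 46 CPM in GTS1 against 6.95 and 4.5 CPM in preGTS1 DMSO, and its relative Id1 had 3 and 7.67 CPM in GTS1 against 22.6 and 16.7 CPM in preGTS1 DMSO. Smad6, an inhibitor of BMP signalling, had 112 and 112 CPM in GTS1 against 17.6 and 17.2 CPM in preGTS1 DMSO. The ligand gene Bmp7 and the receptor genes Bmpr1a and Bmpr1b were less open at their promoters and at 9 of 19, 4 of 5 and 12 of 26 nearest regions. On the Notch side, the receptor gene Notch1, the target Hes1 and the feedback gene Nrarp were more open at their promoters, and Hey2, in the chromosome 10 segment, was less open. Over nearest regions, Notch1 had 2 of 5 more open and 0 less open, Hes1 had 4 of 9 and 1, and Nrarp had 1 of 5 and 1. Other members leaned to the less open side. Jag1 had 7 of 18 less open and 1 more open. Notch2 had 5 of 16, Dll1 3 of 6 and Hey1 3 of 12 less open, each with 0 more open.

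On the more open side, the 12 promoters with the largest gains belonged to genes with no single theme among the lists used. Acoxl, an acyl-CoA oxidase-like gene whose promoter is printed above, had 79.3 and 71.9 CPM in GTS1 against 1.63 and 1.67 CPM in preGTS1 DMSO, 46.5-fold more (difference 4.85 ± 0.56 SE, adjusted p = 8.28e-06). Aox1, the aldehyde oxidase gene, had 87.3 and 97.4 CPM in GTS1 against 5.18 and 3.73 CPM in preGTS1 DMSO, and Aldh3b1, an aldehyde dehydrogenase gene, had 36 and 59.5 CPM in GTS1 against 1.18 and 2.32 CPM in preGTS1 DMSO. Cmbl, a hydrolase gene, had 47 and 48 CPM in GTS1 against 0.739 and 1.42 CPM in preGTS1 DMSO. Each of these promoters was nearly closed in both preGTS1 DMSO libraries. Of the 12, 3 act outside the cell or on collagen: Serpinh1, the collagen chaperone, had 29.5 and 30.7 CPM in GTS1 against 1.18 and 1.16 CPM in preGTS1 DMSO. Loxl1, a lysyl oxidase-like crosslinking enzyme, had 19.5 and 21.1 CPM in GTS1 against 0.444 and 0.515 CPM in preGTS1 DMSO, and Thbs2, a thrombospondin, had 26 and 17.7 CPM in GTS1 against 0.887 and 0.129 CPM in preGTS1 DMSO. The others were Tcim, Rab17, Mir3473e, Trp53cor1 and Krt80.

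Distal gains were as large. The region 70.8 kb from Atl2, which encodes an atlastin of the endoplasmic reticulum, had 162 and 149 CPM in GTS1 against 3.25 and 1.8 CPM in preGTS1 DMSO (63.7-fold more, adjusted p = 4.33e-07). The region 73.1 kb from Agpat4, an acyltransferase gene, had 105 and 99.3 CPM in GTS1 against 0.887 and 1.93 CPM in preGTS1 DMSO. The other 6 lay nearest to Cln8, Commd10, Eno1, Got2, Ccdc121 and Vwde. All 8 had 43 to 162 CPM in GTS1 and 0.129 to 3.47 CPM in preGTS1 DMSO.

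Immediate early genes, which encode the AP-1 and related factors induced by growth signals and stress, had more regions more open than less open. Of 131 nearest regions, 30 (22.9%, beside 11.3% of all regions) were more open and 9 (6.87%, beside 19.3%) less open. At promoters, 5 of 16 were more open (Junb, Ier3, Fosl2, Ier2 and Klf4) and 0 less open, beside 12.5% and 7.36% over all genes. Under the 6 other scalings and fits 4 to 8 were more open and 0 less open. The list's median promoter difference was 0.53, near the 0.54 of the housekeeping genes given below. Ier3, Fosl2, Junb and Ier2 lie in windows of 10 Mb with a median promoter difference of 0.74 to 0.92. Junb, an AP-1 subunit gene, had 58.8 and 51.8 CPM in GTS1 against 15.8 and 13.8 CPM in preGTS1 DMSO (difference 1.83, adjusted p = 6e-05). Fosl2 had 122 and 112 CPM in GTS1 against 46.7 and 47 CPM in preGTS1 DMSO. Klf4 had 10 more open regions among 36, with 50.5 and 47.5 CPM in GTS1 against 1.48 and 1.42 CPM in preGTS1 DMSO at the one with the largest gain. The Egr3 region with the largest loss went the other way, with 1.5 and 0 CPM in GTS1 against 12.1 and 12.1 CPM in preGTS1 DMSO.

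Genes of MHC class I presentation, which load peptides for display to T cells, had more promoters more open than less open. At promoters, 4 of 10 were more open and 0 less open, beside 12.5% and 7.36% over all genes. Under the 6 other scalings and fits 4 to 7 were more open and 0 less open. Tap1, a peptide transporter gene, had 62 and 54.7 CPM in GTS1 against 10.8 and 11.7 CPM in preGTS1 DMSO (difference 2.27, adjusted p = 0.000301). The class I heavy chain gene H2-K1 had 17 and 18.2 CPM in GTS1 against 1.77 and 1.8 CPM in preGTS1 DMSO, and H2-Q4 and the peptide-loading factor gene Tapbp were more open by 2.76 and 2.23. Class I genes are near-identical to one another in places, so their reads may have been shared. All 4 lie on chromosome 17 between 30 and 40 Mb, a window in which the median of 138 promoters was 0.92 higher in GTS1. In that window 52 of the 138 promoters were more open, and the list's own median promoter difference was 0.855. B2m, on chromosome 2, differed by -0.28 at its promoter and was not called. Psme1, Psme2 and Erap1, also on other chromosomes, were not called at their promoters either. Among interferon response genes 3 of 17 promoters were more open (Bst2, Mx2 and Irf1) and 0 less open.

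Of 22 promoters of mesenchymal and matrix genes, 7 were more open and 1 less open (Tgfbi), beside 12.5% and 7.36% over all genes. Under the 6 other scalings and fits 5 to 9 were more open and 0 to 2 less open. The list's median promoter difference was 0.50, against 0.54 for the housekeeping genes given below. Over all 7 regions nearest to Tgfbi, 4 were more open and 1 less open. Lgals1, the galectin-1 gene, had 71.3 and 67.1 CPM in GTS1 against 9.02 and 7.33 CPM in preGTS1 DMSO (difference 2.94, adjusted p = 2.35e-05). Col5a1, a collagen gene, had 37.5 and 46.5 CPM in GTS1 against 8.73 and 9.26 CPM in preGTS1 DMSO. Snai1 and Twist1, which encode repressors of epithelial identity, were more open by 1.05 and 1.23. Over all 181 nearest regions, promoters included, 31 (17.1%, beside 11.3% of all regions) were more open and 39 (21.5%, beside 19.3%) less open, and which of these counts was larger changed with the scaling. Of the mural and fibroblast markers with a promoter region, Foxc1 and Twist2 were more open and Kcnj8 less open, and their 8 promoters summed to 81.8 and 83 CPM in GTS1 and to 44.2 and 44.3 CPM in preGTS1 DMSO. The part of such cells in the list's values was not tested.

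In the list of CDK inhibitors, RB and p53, 2 of 21 promoters were more open and 1 less open, close to the shares over all genes (12.5% and 7.36%). Trp53, encoding p53, had 23.5 and 27.3 CPM in GTS1 against 4.44 and 4.37 CPM in preGTS1 DMSO (difference 2.29, adjusted p = 0.000499). Cdkn1a, the p53 target that encodes p21, had 39.5 and 49.4 CPM in GTS1 against 13.5 and 13.8 CPM in preGTS1 DMSO, and the promoter of its neighbour Trp53cor1, a non-coding RNA gene also known as lincRNA-p21, had 63.3 and 70.5 CPM in GTS1 against 3.7 and 4.12 CPM in preGTS1 DMSO. Cdkn1a and Trp53cor1 lie on chromosome 17 between 20 and 30 Mb. In that window 83 of 172 promoters were more open, and the median promoter difference was 0.99. Cdkn2b, encoding p15, had 5 and 8.15 CPM in GTS1 against 42.7 and 39.1 CPM in preGTS1 DMSO. These 3 protein genes were named because their promoters were called, so the gap between their groups is no further evidence. Of 29 S phase and G2/M genes, 2 promoters were more open (Cdt1 and E2f2) and 0 less open, while in the list of 21 MYC targets and ribosome biogenesis factors 1 promoter was more open (Cad) and 0 less open.

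**Figure D3:**
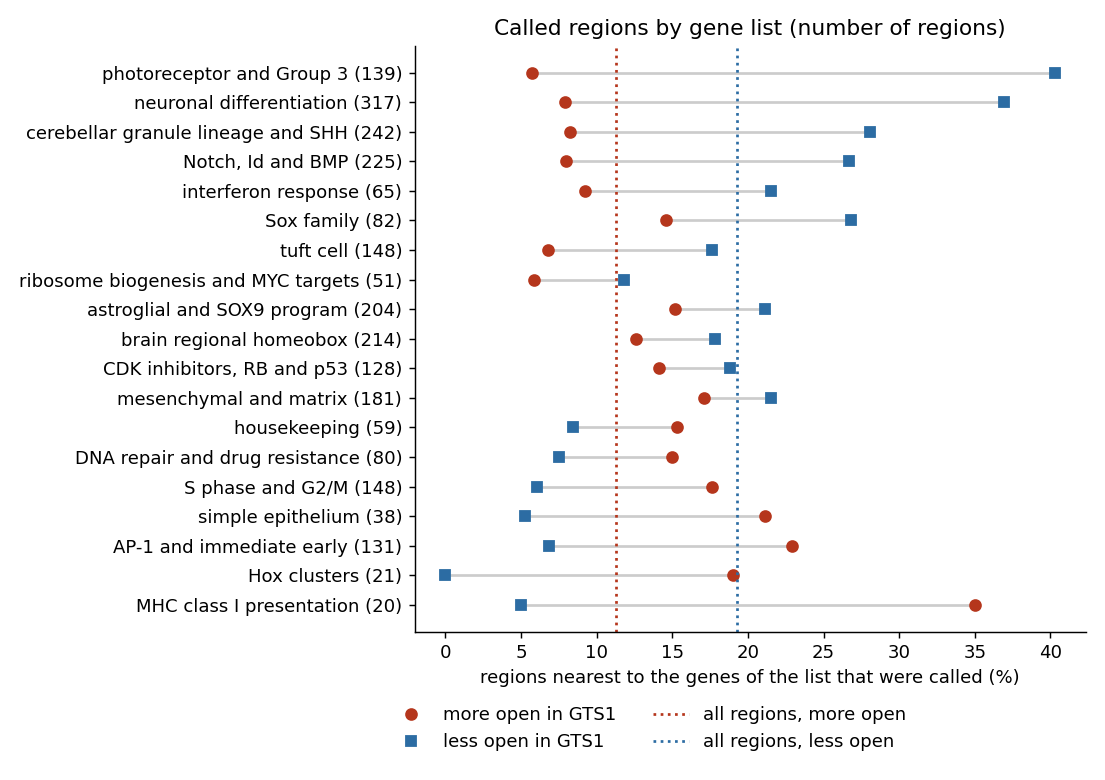
Share of the regions nearest to the genes of each list that were called more open (red circles) or less open (blue squares) in GTS1, with the number of regions in brackets and dotted lines at the shares over all regions (11.3% and 19.3%). Photoreceptor and neuronal lists lie at 40.3% and 36.9% less open, and the MHC class I and immediate early lists at 35% and 22.9% more open.

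The counts of the remaining lists stand beside 12.5% more open and 7.36% less open over all genes by promoter, and in lists this small a few calls decide the share. Astroglial genes had 3 of 22 promoters more open (Sox1, Sox8 and Hopx) and 3 less open (Fabp7, Ptprz1 and Msi1), of which Fabp7 lies in the chromosome 10 segment. Sox8 and Sox1 are also Sox family members, in which 3 of 9 promoters were more open and 0 less open. Tuft cell genes had 1 of 18 more open and 4 less open, simple epithelium genes 1 of 5 and 0, Hox clusters 2 of 9 and 0, brain regional homeobox genes 5 of 20 and 0, and DNA repair genes 4 of 21 and 0. Of 16 housekeeping genes, which served as a control list, 3 promoters were more open, Rplp0 among them, and 0 less open, with a median of 0.54 against 0.14 over all promoters.

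The loci with most called regions are named next. Ranking by count favours genes with many nearest regions. Over all regions 19.3% were less open and 11.3% more open. Zfp536, a neuronal zinc finger gene, had 29 of 48 nearest regions less open and 0 more open, and the regions summed to 59.5 and 65.7 CPM in GTS1 against 471 and 456 CPM in preGTS1 DMSO. Celf4, an RNA-binding protein gene of neurons, had 35 of 71 less open and 2 more open. Tenm2, a teneurin adhesion gene, had 24 of 56 less open, and the microRNA gene Mir218-2 had 22 of 37. The other loci with most losses were Dio2, Flrt3, Ntm, Sash1, Chd6 and Ttll7, each with 22 to 24. On the other side, Maf, a large MAF factor gene, had 15 of 24 regions more open and 0 less open, summing to 256 and 273 CPM in GTS1 against 54.3 and 51.3 CPM in preGTS1 DMSO. Cdh7, a cadherin gene, had 10 of 12 more open, summing to 178 and 167 CPM in GTS1 against 10.4 and 9.78 CPM in preGTS1 DMSO. At Rybp, which encodes a Polycomb subunit, both directions occurred, with 11 of 56 regions more open and 14 less open. The other loci with most gains were Arl4a, Bcor, Mir101c, Btbd3, Edn2, Klf4 and Mannr, each with 10 or 11. Some of these differed little as a whole. Bcor had 11 of 52 regions more open and 4 less open, with a median difference of 0.03. Edn2 had 10 of 31 more open and 4 less open, with a median of 0.20.

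One chromosome segment stood apart. On chromosome 10 below 60 Mb, a limit chosen after the values were seen, 195 of 208 promoters (93.8%) had a lower value in GTS1 and 124 (59.6%) were called less open, against 913 of 13237 promoters (6.9%) elsewhere. The median promoter difference was -1.31 there, 0.06 on the rest of the chromosome and 0.16 over all promoters elsewhere. The segment took 0.712 and 0.703% of the reads in GTS1 against 1.89 and 1.89% in preGTS1 DMSO, and 1.71 to 1.96% in the other 8 libraries. All 6 of its windows of 10 Mb, which held 21 to 44 promoters, had a median of -0.92 or lower, while 1 of 87 other windows with as many promoters was below -0.9. In GTS2 against GTML3 under DMSO the segment's median promoter difference was 0.06. GTS1 thus had the lowest share of the 6 groups. A lower DNA copy number and closed chromatin cannot be told apart from these reads, and DNA copy number was not measured here.

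Gene-dense windows lay higher. Across windows outside that segment, the median of the window medians was 0.5 in 29 windows with 100 promoters or more, 0.15 in 79 windows with 50 to 99, and -0.10 in 148 windows with 10 to 49. The highest window, on chromosome 19 below 10 Mb, had 169 promoters and a median of 1.34. By chromosome, promoter medians were highest on chromosome 8 (0.63), 17 (0.58) and 15 (0.49) and lowest on chromosome 3 (-0.30). A single region beside the ribosomal RNA gene Rn45s on chromosome 17 took 3.56 and 3.88% of the reads in GTS1 against 1.12 and 1.11% in preGTS1 DMSO. On chromosome Y the 14 regions held 1 and 2 reads in GTS1, 12 and 15 in preGTS1 DMSO, 0 and 0 in GTS2 and 204 and 213 in GTML3 under DMSO.

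**Figure D4:**
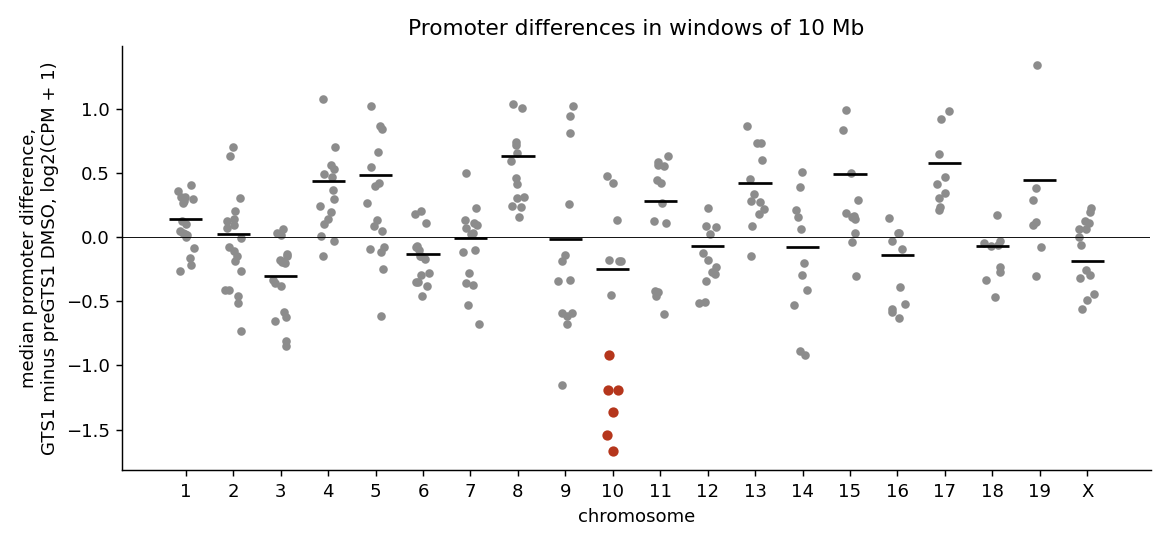
Median promoter difference, GTS1 minus preGTS1 DMSO on the log2(CPM + 1) scale, in windows of 10 Mb with at least 10 promoters (points, spread sideways for legibility), by chromosome, with the median of each chromosome as a bar. The 6 red points are the windows of chromosome 10 below 60 Mb, at -0.92 to -1.67, and the other windows lie between -1.15 and 1.34.

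The genes named by the model and the title differed in how their loci behaved. The Sox9 promoter had 111 and 110 CPM in GTS1 against 88.6 and 93.3 CPM in preGTS1 DMSO, a difference of 0.28 ± 0.18 SE that did not pass (adjusted p = 0.26), and neither of its 2 regions was called. The Myc promoter had 45 and 44.1 CPM in GTS1 against 37.7 and 45.2 CPM in preGTS1 DMSO (adjusted p = 0.73), and 1 of its 4 regions, 96.4 kb away, was less open. The Mycn promoter regions did not pass either, at -0.24 and 0.64. These promoters were open in both groups. Around Mycn, however, 3 of 16 regions were more open and 5 less open: the region 37.2 kb from the start had 57.8 and 62.4 CPM in GTS1 against 7.1 and 8.62 CPM in preGTS1 DMSO, and the one 35.1 kb away had 0.5 and 5.28 CPM in GTS1 against 21 and 20.8 CPM in preGTS1 DMSO. Mgmt, which encodes the DNA repair enzyme that removes alkyl groups from guanine, had 3 of 9 regions more open and 0 less open, at 73.9 kb or more from the start and with at most 14.3 CPM.

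The Slc1a2 locus held some of the tallest regions of the table and changed its pattern. A set of 4 regions between 45.2 and 56.2 kb from the Slc1a2 start, within chr2:102489284-102502110, reached at least 150 CPM in one of the 6 groups. The outermost had 1710 and 1740 CPM in GTS1 against 166 and 163 CPM in preGTS1 DMSO, 10.5-fold more (adjusted p = 1.62e-15), and was the fifth highest region in GTS1. The innermost had 1280 and 1370 CPM in GTS1 against 79.7 and 70.9 CPM in preGTS1 DMSO, 17.5-fold more. The region 48.1 kb away went the other way, with 576 and 594 CPM in GTS1 against 2300 and 2310 CPM in preGTS1 DMSO, where it was the third highest of all regions. Of the summed reads of the 4, this region held 14.9 and 14.7% in GTS1, 87.8 and 88.0% in preGTS1 DMSO, 28.5 and 25.7% in GTS2 and 75.1 and 74.5% in GTML3 under DMSO. The region 50.2 kb away had 309 and 344 CPM in GTS1 against 73.4 and 82.2 CPM in preGTS1 DMSO, 4.11-fold more, and was the strongest of the 4 in GTS2, with 1120 and 1220 CPM against 154 and 165 CPM in GTML3 DMSO. The regions 50.2 and 48.1 kb away thus differed in the same direction in GTS1 against preGTS1 DMSO and in GTS2 against GTML3 DMSO (-1.63 on the log2 scale at 48.1 kb in GTS2), while the strongest region of the 4 was not the same one in GTS1 and GTS2. The 10 other Slc1a2 regions summed to 26.8 and 23 CPM in GTS1 and to 174 and 164 CPM in preGTS1 DMSO, and 7 of them were less open. The model's activator transgene is driven from this gene, and reads of transgene copies cannot be told apart from those of the gene itself.

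**Figure D5:**
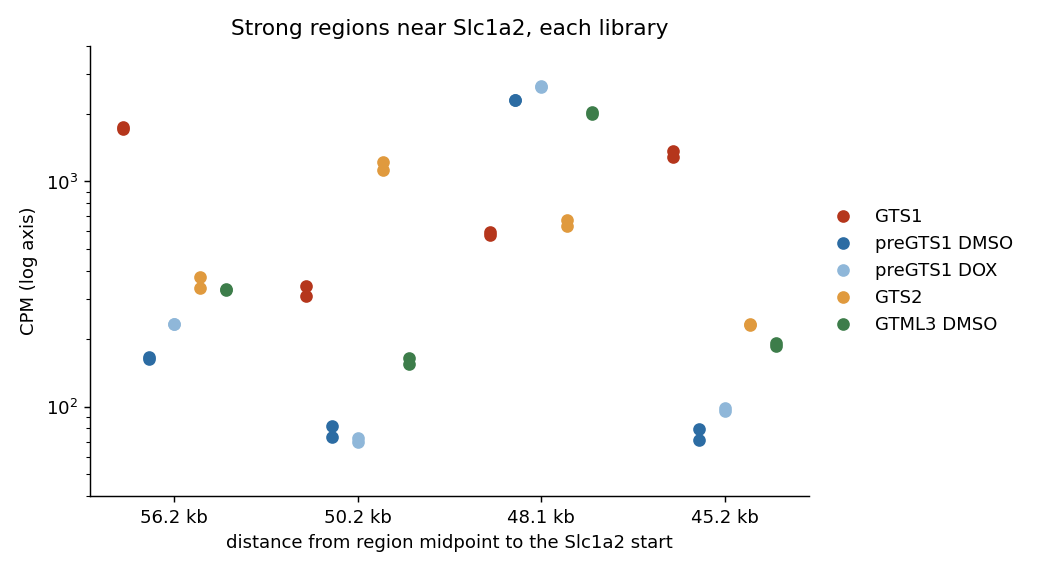
CPM on a log axis of each library in the 4 strong regions near Slc1a2, by distance from the gene start, for GTS1, preGTS1 DMSO, preGTS1 DOX, GTS2 and GTML3 DMSO. GTS1 is highest at 56.2 and 45.2 kb (1280 to 1740 CPM), preGTS1 DMSO is at 2300 and 2310 CPM at 48.1 kb, and GTS2 is highest at 50.2 kb.

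GTS2 against GTML3 under DMSO shares no library with the comparison above, although the preGTS1 DMSO and GTML3 DMSO libraries resembled each other (Pearson correlations near 0.80). Of the 17155 regions less open in GTS1, 8335 (48.6%) were also less open in GTS2 than in GTML3, where 20.8% of all regions were, and they made up 45.1% of the 18479 regions less open in GTS2. Of the 10079 regions more open in GTS1, 1516 (15%) were also more open in GTS2, where 15.5% of all regions were, and 901 were less open there. The share was above that of all regions for the losses and near it for the gains, but the 2 are not matched. In GTML3 DMSO, regions less open in GTS1 had a median of 4.68 CPM and those more open 1.46 CPM. A region near 0 CPM in GTML3 DMSO can hardly be called less open in GTS2. Choosing regions that are high in preGTS1 DMSO, which resembles GTML3 DMSO, thus raises the share for the losses by itself. Without preGTS1 DMSO library 1 the shared counts were 5332 less open and 868 more open, without library 2 they were 5383 and 881, and the more open count was 989 and 985 without GTS1 library 1 and library 2. Regions less open in GTS1 had medians of 1.48 CPM in GTS1, 1.06 CPM in GTS2, 10.6 CPM in preGTS1 DMSO and 4.68 CPM in GTML3 DMSO. Among the 12 promoters with the largest losses, 10 were also called less open in GTS2 and 2, Abracl and Plagl1 of the chromosome 10 segment, were called more open. Among the 12 with the largest gains, Aldh3b1 was also called more open in GTS2. The Otx2 regions were shared in direction, with 7 of 13 less open in GTS2, where they summed to 21.1 and 14.5 CPM in GTS2 and to 336 and 351 CPM in GTML3 DMSO. Under DOX, the preGTS1 libraries had 571 and 583 CPM at these regions, near the 585 and 614 CPM under DMSO.

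RNA was read beside the accessibility of a few genes, in tables that were normalized separately. A GTS tumor of the RNA samples also bears the title GTS1. No label says whether it is the source of the GTS1 ATAC libraries, and it is not singled out below. Over the 6 GTS tumors, log2 CPM of RNA spanned -0.74 to 9.74 for Crx and -0.41 to 8.66 for Otx2, so these tumors themselves varied widely. Over 3 samples of preGTS1 under DMSO Crx had 4.12 to 4.32 and Otx2 had 6.64 to 6.73. RNA of Thbs2 was 7.02 to 7.14 in preGTS1 under DMSO although its promoter had 0.887 and 0.129 CPM there, and that of Twist1 was 4.86 to 4.96. At Thbs2, a nearly closed promoter in this table and RNA of that level were thus found in the same line. How far accessibility and RNA went together over all genes was not tested.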

How the data were processed

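ATAC-seq reads were processed by the authors, and the submitters' processing notes name Bowtie2 2.2, MACS2 and edgeR among their tools and mm9 and mm10 among their builds, without saying which served which table. The coordinates of the ATAC table fit mm9. For each region the authors deposited a CPM value whose library total is the sum over the table, and 100% of these values gave whole reads within a tolerance of 0.1 read. One line that names no region, with 0 reads, was left out. The RNA values the authors deposited are log2 CPM.

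The members and gene lists were chosen with earlier results of these data known. Groups came from the sample titles. Log2(CPM + 1) of 12 libraries in 6 groups was fitted with limma 3.58.1 (lmFit, then eBayes with its trend and robust options) under R 4.3.3. P-values were adjusted over 88981 regions by Benjamini-Hochberg. The pseudocount of 1 understates differences of weak regions. CPM, folds and reads in the text are per library or over both duplicates merged, since the labels do not say that duplicates are separate samples. The procedure was tested on simulated data. A gene's promoter region is the one with the highest mean CPM within 1 kb of its start. Named were the 12 promoters and 8 distal regions (over 10 kb) with the largest differences each way, the 10 loci with most calls each way, up to 3 called promoters a list and direction, and the model genes. Riken, Gm and unnamed genes were passed over, and the values of a few other named genes are not reported here. Roles given for Gnat2 and Sag come from the human and mouse retina, and further list members in the text (Cngb1, Egr3, the housekeeping genes) were chosen after their values were seen.

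A comparison of motif content or GC between called and other promoters is void, since 78.8% of the 13144 genes with a promoter region, and 74.4% of those less open, matched a RefSeq promoter, below the 80% required. Replicate numbers did not pair libraries: deviations of GTS1 replicates correlated with those of the other groups by -0.007 to 0.003. Alternatives covered the pseudocount, a low-value filter, 5 other scalings, edgeR 4.0.16 on whole reads, a fit of 4 libraries, a replicate block, each library left out and other limits. Intervals were not computed, and PCR copies were not told from separate molecules in the files.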

Additional observations from a re-analysis of the deposited data

How the results depend on the processing

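Counts depended on settings. With a pseudocount of 0.25, 6590 regions were more open, and over 50 kb from a start 2327 were more and 4929 less open. With 4, 906 more open and 5516 less open regions were called the same way in GTS2. Centring on the median region gave 15409 more open and 10505 less open regions, 3604 and 574 promoters, 4708 less open regions over 50 kb away, and 3498 more and 5287 less open regions shared with GTS2. Centring on the median promoter gave 954 more and 1560 less open promoters. Regions more open and shared with GTS2 numbered 2611 with quantile normalization, 2380 with chromosome centring and 2741 with edgeR, which called 15221 regions and 2703 promoters more open. Adjusted p alone gave 3055 more and 1774 less open promoters. A difference of at least 2 gave 5385 more and 9179 less open regions, 255 and 394 promoters, 2407 and 4230 regions over 50 kb away, and 448 and 3759 shared with GTS2. Promoters within 2.5 kb numbered 1688 less open.

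Leaving out one library at a time gave 6610 to 7451 more open and 9658 to 11903 less open regions, 1196 to 1257 and 699 to 873 promoters, 2458 to 2862 and 4223 to 5178 regions over 50 kb away, and 868 to 989 and 5332 to 6298 shared with GTS2. The lone library of a group was assumed to vary like the other groups. The lowest counts came without preGTS1 DMSO library 1. The replicate block gave 10067 more open and 17087 less open regions and pairs nothing but a number.

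The median promoter difference was 0.14 as deposited, 0.60 with median-region centring, -0.11 with promoter centring, 0.37 with chromosome centring, 0.31 with TMM, 0.19 with quantile normalization and 0.35 with edgeR. Of 142 named regions and promoters over 2129 comparisons with another setting, 1925 kept direction and side of the threshold, 197 no longer passed, 1 newly passed and 6 changed sign. The Mycn promoter region starting at 12948420 was 0.23 with median-region centring, 0.06 with chromosome centring and from -0.478 to 0.005 when one library was left out. The Myc promoter region starting at 61816384 was -0.024 with quantile normalization, -0.139 with promoter centring and from -0.018 to 0.236 when one library was left out. Causes were not tested.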
